A study of Mus musculus with 20 samples.

Results

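Mfsd4, Olfm3, Prmt8, Xk, Ankrd34a, Crabp2 and Aldh18a1 are 7 genes that stood lower in cultured mouse cerebellar granule neurons carrying an shRNA against Kdm6b than in control cultures. They were picked by symbol out of the 24411 genes of the count table because they were lower in the knockdown or rescue libraries than in control and belong to no channel, receptor or matrix family, so their levels against control are what chose them and are given here as a description without a test. All 7 were among the 15284 genes that passed the filter on low counts. The working name of the set calls them linked to maturation. All cultures were harvested on day 7, so change with age was not measured, and no value here bears on that part of the name. A list of late granule neuron genes, without the 7 members, is described further on.

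Granule neurons, the small excitatory neurons of the granule layer of the cerebellum, were infected on day 1 in vitro, given AraC, a blocker of DNA synthesis that removes dividing cells, on day 2, and harvested on day 7. The 4 groups, with 5 libraries each, were control cultures, cultures with an shRNA against mouse Kdm6b (shKdm6b), cultures with that shRNA and an active human KDM6B enzymatic domain (active rescue), and cultures with that shRNA and an enzymatically dead form of the domain (dead rescue). Both rescue groups therefore carry the same shRNA as the shKdm6b group, and all 4 groups received AraC. The sources used here do not give what the controls were infected with, the strain or age of the mice, or whether libraries came from separate cultures or animals; a p-value therefore covers the spread over these 20 libraries, which may be technical.

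Kdm6b encodes a demethylase that removes methyl groups from lysine 27 of histone H3, a mark written by Polycomb repressive complex PRC2 and found at genes that are held silent. The mark is frequent at promoters rich in CpG dinucleotides. As granule neurons mature in the cerebellum they switch on receptor subunits, channels and synaptic proteins and switch off genes of migration and axon growth. The 7 genes have unlike roles: Mfsd4 (current symbol Mfsd4a) encodes a membrane protein of the major facilitator family of transporters; Olfm3 a secreted glycoprotein with an olfactomedin domain that is found with AMPA receptors; and Xk a membrane protein that carries a blood group antigen on red cells and binds the lipid transfer protein VPS13A. Prmt8 is a neuronal arginine methyltransferase anchored at the plasma membrane, and Aldh18a1 is the mitochondrial enzyme that converts glutamate into the precursor of proline and ornithine. Crabp2 carries retinoic acid from the cytoplasm to its nuclear receptors, and Ankrd34a encodes an ankyrin repeat protein.

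RefSeq promoter windows (build GRCm38.p6, 250 bases before to 50 after each start, 300 in all) were matched for 6 of the 7 genes; Crabp2 had no entry. The windows are shown for 3 of them because they span the range of CpG content in the set, with every CpG dinucleotide in capitals, 5′ to 3′ along the gene.
Prmt8, chr6:127769106-127769405, minus strand: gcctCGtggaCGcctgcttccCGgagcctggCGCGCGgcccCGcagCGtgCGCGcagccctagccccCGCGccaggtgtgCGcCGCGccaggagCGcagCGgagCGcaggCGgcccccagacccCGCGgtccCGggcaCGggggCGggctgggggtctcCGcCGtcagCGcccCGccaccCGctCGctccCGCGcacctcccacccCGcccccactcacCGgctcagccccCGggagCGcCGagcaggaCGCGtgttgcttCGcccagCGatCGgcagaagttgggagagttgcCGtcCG
Mfsd4, chr1:132068013-132068312, minus strand: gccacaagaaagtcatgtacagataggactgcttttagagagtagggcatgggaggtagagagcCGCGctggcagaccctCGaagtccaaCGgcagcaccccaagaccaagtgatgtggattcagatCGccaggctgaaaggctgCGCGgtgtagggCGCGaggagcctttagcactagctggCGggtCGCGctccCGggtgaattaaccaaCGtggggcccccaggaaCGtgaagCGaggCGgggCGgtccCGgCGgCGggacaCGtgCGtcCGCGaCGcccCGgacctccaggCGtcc
Olfm3, chr3:114903828-114904127, plus strand: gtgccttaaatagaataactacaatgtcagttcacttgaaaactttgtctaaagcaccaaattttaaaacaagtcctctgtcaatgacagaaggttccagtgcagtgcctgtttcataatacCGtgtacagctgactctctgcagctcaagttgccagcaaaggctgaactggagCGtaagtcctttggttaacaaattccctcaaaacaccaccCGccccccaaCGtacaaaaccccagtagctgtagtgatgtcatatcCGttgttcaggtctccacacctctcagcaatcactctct
The Prmt8 window holds 44 CpG dinucleotides, more than 97.8% of the 32851 windows in the RefSeq table, whose median is 7.0. The Xk window holds 39, the Mfsd4 window 28, the Aldh18a1 window 23 and the Ankrd34a window 15. The Olfm3 window shown holds 5 and a second Olfm3 start, chr3:115080715-115081014, holds 4, so the set includes starts on both sides of the median. On either strand none of the windows held the nuclear factor I palindrome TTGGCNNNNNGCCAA (in 0.0365% of all windows), the nuclear receptor core site AGGTCA (16.3%), the amino acid response element core TGATGNAA (3.97%) or the cAMP response element TGACGTCA (1.79%). The E-box CANNTG, present in 72.3% of all windows, occurred 2 times each in the Mfsd4, Aldh18a1 and first Olfm3 windows, 1 time in each Prmt8 window, and not in those of Xk, Ankrd34a and the second Olfm3 start. These are matches of letters; binding was not measured.

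By GENCODE M21, whose coordinates are on GRCm38 (mm10), each of the 7 is a protein-coding gene (coordinates cover exons, introns and UTRs). Mfsd4 occupies chromosome 1, bases 132022806 to 132068062 (minus strand), and overlaps Elk4 and Gm26892 on the opposite strand. Prmt8 occupies chromosome 6, bases 127689011 to 127769472 (minus strand), and overlaps 2 predicted genes on the opposite strand. Xk on chromosome X (9272756 to 9313250, plus strand) and Aldh18a1 on chromosome 19 (40550257 to 40588463, minus strand) each overlap 1 gene on their own strand. Olfm3 (114904078 to 115125722), Ankrd34a (96596636 to 96599775) and Crabp2 (87948666 to 87953376) lie on the plus strand of chromosome 3 and overlap no other gene. Overlap here is of whole gene spans, introns included, and overlap of exons was not examined. No source used here says whether reads were counted by strand, so whether overlapping genes shared reads is not known.

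The libraries held 14200745 to 21179300 estimated counts. Kdm6b itself stood at 141, 171, 139, 81.2 and 187 CPM (counts per mega-count of library size) in control libraries 1 to 5 and at 99.4, 112, 89.3, 37.9 and 76.4 CPM in shKdm6b, lower in each same-numbered pair. In libraries 1 to 5 it stood at 290, 312, 266, 73.2 and 119 CPM in the active rescue and at 272, 250, 192, 54.9 and 109 CPM in the dead rescue. Both rescues were above the same-numbered control in numbers 1 to 3 and below it in numbers 4 and 5. In the rescues the human domain's own reads could have been assigned to mouse Kdm6b. The library number, 1 to 5, ran through all groups as a shared pattern, and the ribosomal RNA precursor Rn45s took 2.43 to 7.24% of the counts in those numbered 1 to 3 against 0.206 to 0.611% in 4 and 5. Libraries numbered 4 stand apart: the summed level of 12 granule neuron markers was 1920 to 3103 CPM there against 4374 to 7252 CPM in the other 16, and that of 10 astrocyte and Bergmann glia markers 7320 to 8887 CPM against 1350 to 4770 CPM. None of the granule neuron markers was at 0 in every library. In such bulk libraries fewer cells of a type and less RNA per cell cannot be told apart. Because the number pairs the libraries, fold changes below come from edgeR's quasi-likelihood fit with the number as a block (the paired fit) unless a fit without pairing is named.

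Of the membrane and secreted proteins, Mfsd4 had the lowest knockdown level relative to control. Its level in control libraries 1 to 5 was 22.6, 17.6, 24.0, 3.96 and 71.2 CPM, and in shKdm6b 7.66, 7.44, 6.53, 0.782 and 13.2 CPM. In the active rescue it was 6.39, 7.13, 7.17, 3.91 and 30.7 CPM, and in the dead rescue 12.1, 6.53, 6.92, 1.14 and 35.9 CPM. Libraries numbered 5 were the highest and libraries numbered 4 the lowest in every group, and the groups overlapped for that reason, while each control library was above its same-numbered shKdm6b and dead rescue library. Control and active rescue libraries numbered 4 were nearly equal, 0.02 apart on the log2 scale. Against control, the paired log2 fold change was -1.80 ± 0.29 (SE) in shKdm6b, -1.21 ± 0.29 in the active rescue and -1.29 ± 0.28 in the dead rescue.

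Olfm3 was measured at 113, 95.01, 69.9, 23.2 and 114 CPM in control libraries 1 to 5 and at 34.3, 53.4, 34.1, 2.90 and 56.0 CPM in shKdm6b. The active rescue libraries held 75.9, 86.9, 45.7, 4.44 and 65.6 CPM and the dead rescue libraries 77.5, 37.4, 24.8, 5.06 and 81.1 CPM. Libraries numbered 4 were again far below the rest, and the groups overlapped. With pairing, the log2 fold change against control was -1.48 ± 0.29 (SE) in shKdm6b, -0.88 ± 0.29 in the active rescue and -1.19 ± 0.29 in the dead rescue. The pair numbered 4 carried the largest difference for this gene in each comparison with control (-2.98, -2.37 and -2.18 in log2 CPM). Without the 4 libraries numbered 4 the active rescue value became -0.53, and without control library 4 alone it was -0.56.

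Xk stood at 28.3, 34.2, 20.9, 4.49 and 33.4 CPM in control and at 9.03, 12.7, 8.93, 1.66 and 13.4 CPM in shKdm6b. Its knockdown differences were the most even of the 6 larger ones, from -1.64 to -1.22 in log2 CPM over the 5 pairs (mean -1.40 ± 0.16, SD). In the active rescue the levels were 11.7, 13.6, 7.65, 1.90 and 17.6 CPM and in the dead rescue 21.5, 11.4, 7.50, 1.84 and 20.3 CPM. The control library was the highest of its number in all 5 numbers. The paired log2 fold change against control was -1.40 ± 0.18 (SE) in shKdm6b, -1.25 ± 0.18 in the active rescue and -1.04 ± 0.17 in the dead rescue.

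**Figure D1:**
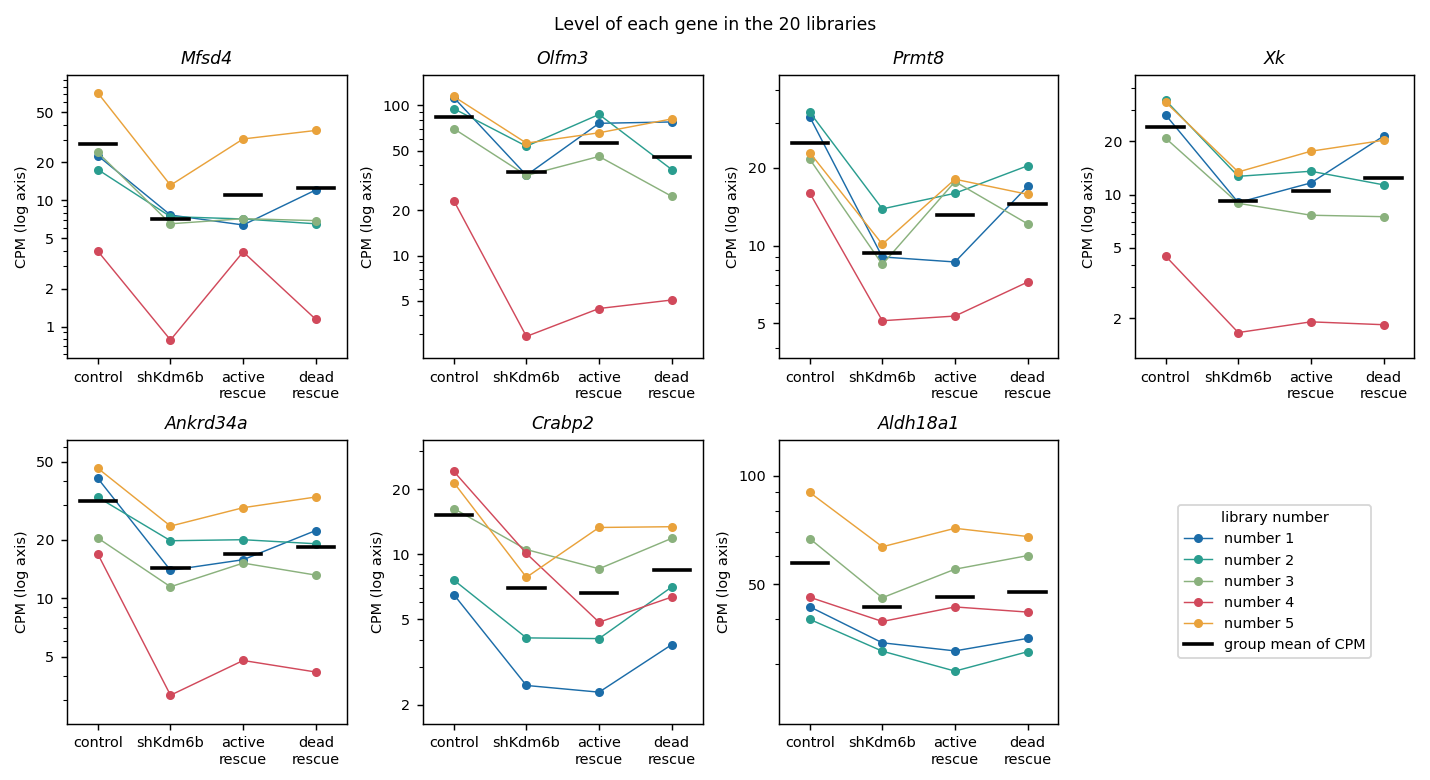
Level in CPM (log axis) of the 7 genes in each of the 20 libraries, with lines joining libraries of the same number across the 4 groups and a black bar at the mean of each group of 5. In each number the control point is the highest for all 7 genes, although control and active rescue 4 nearly coincide for Mfsd4 (3.96 and 3.91 CPM), and the lines of number 4 lie lowest for Mfsd4, Olfm3, Prmt8, Xk and Ankrd34a but not for Crabp2 and Aldh18a1.

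The enzyme gene Prmt8 was the single member whose shKdm6b and control libraries did not overlap, something seen in the lower direction in 0.327% of all genes tested (0.177% for the active and 0.157% for the dead rescue, where no member qualified); since this contrast chose the gene, nothing is read from it. Control libraries 1 to 5 held 31.6, 32.9, 21.6, 16.004 and 22.9 CPM and shKdm6b libraries 9.03, 13.9, 8.44, 5.11 and 10.1 CPM. In the active rescue the levels were 8.63, 15.9, 17.7, 5.32 and 18.1 CPM, and in the dead rescue 16.96, 20.4, 12.1, 7.21 and 15.8 CPM. The active rescue libraries were uneven: numbers 3 and 5 lay near their controls and numbers 1 and 4 near shKdm6b. Against control, the paired log2 fold change was -1.46 ± 0.19 (SE) in shKdm6b, -0.99 ± 0.19 in the active rescue and -0.83 ± 0.19 in the dead rescue. Prmt1, the widely expressed relative of Prmt8 whose reads could be shared with it, had a log2 fold change of -0.01 ± 0.11 in shKdm6b against control (edgeR paired adjusted p = 0.980).

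Aldh18a1, the proline pathway enzyme, had the smallest differences. It stood at 43.3, 39.9, 66.9, 46.0 and 90.0 CPM in control and at 34.4, 32.6, 45.9, 39.4 and 63.5 CPM in shKdm6b. The active rescue held 32.6, 28.7, 55.0, 43.2 and 71.5 CPM and the dead rescue 35.3, 32.5, 60.03, 41.8 and 67.8 CPM. Group ranges overlapped widely, and control was the highest within every number. With pairing, the log2 fold change against control was -0.38 ± 0.08 (SE) in shKdm6b, -0.32 ± 0.08 in the active rescue and -0.26 ± 0.08 in the dead rescue.

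Crabp2, the retinoic acid carrier, stood at 6.50, 7.59, 16.3, 24.2 and 21.5 CPM in control and at 2.46, 4.09, 10.5, 10.1 and 7.81 CPM in shKdm6b. The active rescue held 2.29, 4.06, 8.56, 4.84 and 13.3 CPM and the dead rescue 3.81, 7.04, 11.8, 6.33 and 13.4 CPM. Unlike the other genes, its control level was highest in library 4, and the mean of the active rescue (6.61 ± 4.38 CPM, SD, n = 5) was no higher than that of shKdm6b (6.99 ± 3.59 CPM, n = 5). The paired log2 fold change against control was -1.12 ± 0.23 (SE) in shKdm6b, -1.26 ± 0.24 in the active rescue and -0.79 ± 0.23 in the dead rescue. Without the libraries numbered 4 the dead rescue value was -0.52. The related carrier gene Crabp1 had a mean of 2.13 CPM over all libraries and a log2 fold change of -0.44 ± 0.35 in shKdm6b against control (edgeR paired adjusted p = 0.647).

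Ankrd34a, the ankyrin repeat gene, stood at 41.2, 33.0, 20.4, 16.8 and 46.4 CPM in control and at 13.9, 19.7, 11.4, 3.17 and 23.4 CPM in shKdm6b. In the active rescue it was 15.8, 19.95, 15.1, 4.79 and 29.1 CPM and in the dead rescue 22.2, 19.0, 13.1, 4.18 and 33.1 CPM. The 3 shRNA libraries numbered 4 were all under 5 CPM while their control was at 16.8 CPM. Against control, the paired log2 fold change was -1.31 ± 0.20 (SE) in shKdm6b, -1.03 ± 0.20 in the active rescue and -0.97 ± 0.20 in the dead rescue.

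Set side by side, all 7 genes were lower than control in 5 of 5 same-numbered pairs in each of the 3 comparisons. Of all 15284 genes, 11.9% were lower in every pair for shKdm6b, 4.51% for the active rescue and 5.65% for the dead rescue; the comparisons share the control libraries and chose the genes, so the counts are a description. The median log2 fold change of the 7 was -1.40 in shKdm6b, -1.03 in the active rescue and -0.97 in the dead rescue, against medians over all genes of 0.01, 0.02 and 0.00. Control had the highest mean level for all 7 genes. The lowest mean was that of shKdm6b for 6 genes and that of the active rescue for Crabp2. Within numbers 1 to 3 alone, the mean difference in log2 CPM between shKdm6b and control ran from -0.39 for Aldh18a1 to -1.55 for Mfsd4. In the fit without pairing the knockdown values were similar but less precise, from -0.41 ± 0.29 (SE) for Aldh18a1 to -1.97 ± 0.84 for Mfsd4.

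**Figure D2:**
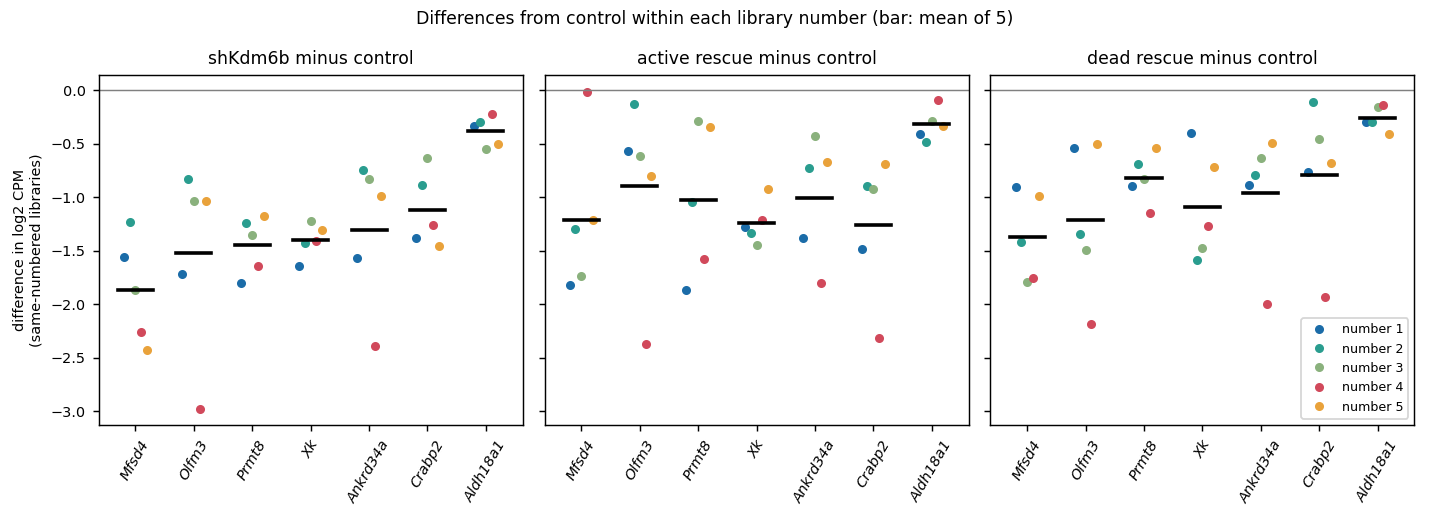
Difference in log2 CPM from the control library of the same number, for the 7 genes in shKdm6b, the active rescue and the dead rescue, with 1 point per number and a black bar at the mean of 5 pairs. All points lie below 0; the nearest is Mfsd4 in the active rescue number 4, at -0.02, and the farthest is Olfm3 in shKdm6b number 4, at -2.98.

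The rescue comparisons ask whether the enzymatic domain raised the genes above the knockdown. The shKdm6b libraries took part in choosing the genes, so that low values there favour a higher rescue, and these differences too are given without a test. Prmt8 was higher in the dead rescue than in shKdm6b in 5 of 5 pairs, by 0.49 to 0.91 in log2 CPM, with a paired log2 fold change of 0.63 and a 95% interval of 0.23 to 1.04. In the active rescue its value was 0.48 (0.07 to 0.88), higher in 4 of 5 pairs, and 0.28 without active rescue library 3. Olfm3 was higher in the active rescue in 5 of 5 pairs, at 0.61 with an interval from -0.0017 to 1.21, and in the dead rescue in 3 of 5, at 0.29 (-0.33 to 0.91). Of all genes, 2.66% were higher in all 5 pairs for the active rescue and 1.75% for the dead rescue.

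Mfsd4 was 0.60 (-0.03 to 1.22) above shKdm6b in the active rescue. Most of that came from numbers 4 and 5 (2.24 and 1.22 in log2 CPM), against -0.26 to 0.13 in numbers 1 to 3. Its dead rescue value was 0.52 (-0.11 to 1.14). Ankrd34a was higher in 5 of 5 pairs of the active rescue, at 0.28 (-0.14 to 0.70), and in 4 of 5 of the dead rescue, at 0.34 (-0.08 to 0.76). Xk stood at 0.15 (-0.22 to 0.53) and 0.36 (-0.01 to 0.74), Crabp2 at -0.13 (-0.64 to 0.37) and 0.33 (-0.17 to 0.83), and Aldh18a1 at 0.06 (-0.10 to 0.23) and 0.12 (-0.04 to 0.28) in the active and dead rescue. Single libraries moved several of these values by over 1.5 times. Without active rescue library 4 the active rescue value became 0.29 for Mfsd4, and that of Crabp2 changed sign, from -0.13 to 0.04. Without dead rescue library 1 the dead rescue value became 0.11 for Olfm3 and 0.13 for Xk. No member reached the control level in the mean of either rescue, but rescue levels below control were part of what chose the genes, so this is a description. The nearest was Aldh18a1, with 80.7% (active) and 83.0% (dead) of the control mean, and the farthest was Mfsd4 in the active rescue, at 39.7%.

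The active and dead rescues differ by design in the activity of the enzymatic domain and use neither control nor shKdm6b libraries, although the rescue libraries also took part in choosing the genes. The level assigned to Kdm6b was not equal in the 2 rescues. It was higher in the active rescue in 5 of 5 pairs, by 0.10 to 0.47 in log2 CPM (paired log2 fold change 0.29, 95% interval -0.15 to 0.72). None of the 7 passed in either fit of edgeR, with adjusted p = 1.00 for every member with and without pairing. The paired fit called 0.00654% of all genes, which is 1 gene, the potassium channel partner Kcnip1 (log2 fold change 1.67 ± 0.24, SE; adjusted p = 0.0411), named here after its value was seen; the fit without pairing called 0, with 37 genes under an unadjusted p of 0.05 (415 with pairing), and DESeq2 called 0 without and 3 with pairing. Crabp2 came nearest to a difference: it was lower with the active than with the dead domain in 5 of 5 pairs, as were 2% of all genes (3.49% were higher, none of them a member), at -0.46 with a 95% interval of -0.97 to 0.04 and an unadjusted p of 0.0675 in the edgeR paired fit. Its exact two-sided sign-flip test gave p = 0.0625, the smallest that 5 pairs allow, and the exact permutation test over libraries p = 0.389.

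For the other 6 genes the exact permutation p ran from 0.683 to 0.952, in 7 tests in all with a smallest possible p of 0.00794. The intervals of the paired fit limit the active minus dead difference to between -0.22 and 0.10 for Aldh18a1, -0.48 and 0.35 for Ankrd34a, -0.58 and 0.17 for Xk and -0.56 and 0.25 for Prmt8. They were wider for Mfsd4 (0.08, from -0.54 to 0.70) and Olfm3 (0.31, from -0.30 to 0.93). The direction of Mfsd4 turned without the libraries numbered 4 (-0.26). Differences within those intervals are not excluded by these libraries.

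**Figure D3:**
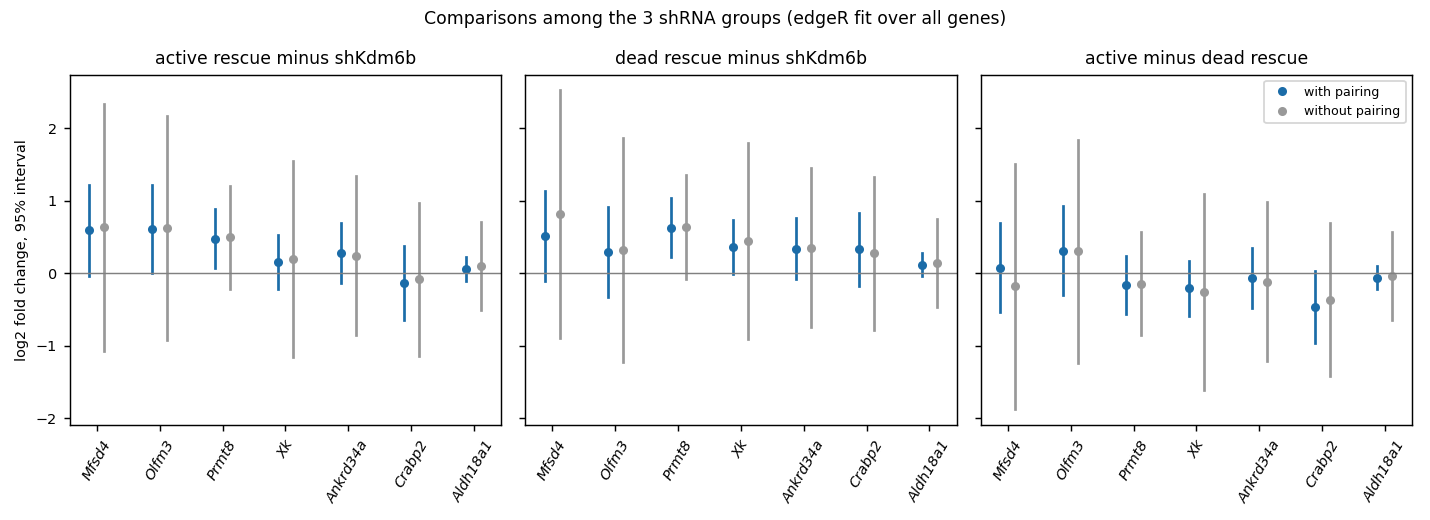
Log2 fold changes of the 7 genes between the 3 groups that carry the shRNA, from edgeR fits over all genes with (blue) and without (grey) pairing by library number; bars are 95% intervals. In the comparison of the active with the dead rescue every interval includes 0, and the lowest paired value is that of Crabp2 at -0.46.

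Library number, which the choice of genes did not use, was the larger source of variation for most of them. Over the 20 libraries it accounted for 38.9% of the sum of squares of log2 CPM in Prmt8 and for 60.4 to 86.6% in the other 6, against 49.8% for the group in Prmt8 and 10.3 to 28.2% in the others. All 7 differed between numbers in the F test of the paired edgeR fit (adjusted p from 3.57e-08 for Aldh18a1 to 0.000445 for Prmt8), as did 84.7% of all genes, so 7 of 7 is close to the background. The mean level of Mfsd4 was 37.8 CPM in number 5 and 2.45 CPM in number 4, a span of 4.00 in mean log2 CPM. Olfm3 spanned 3.60, Xk 3.12, Ankrd34a 2.47, Crabp2 1.92, Prmt8 1.38 and Aldh18a1 1.13.

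Mfsd4, Olfm3, Prmt8, Xk and Ankrd34a were lowest in number 4, the libraries with the lowest granule neuron marker sum. Crabp2 was lowest in number 1 and Aldh18a1 in number 2. All members but Prmt8, which was highest in number 2, had their highest level in number 5, where 10 fibroblast and meningeal markers summed to 24928 to 32524 CPM against 5171 to 18081 CPM in the other libraries. The oligodendrocyte lineage and endothelial marker sums were also highest in number 5 (761 to 1014 and 184 to 210 CPM), and the astrocyte and Bergmann glia sum was lowest there (1350 to 1801 CPM). Between groups, the fibroblast sum was lower in shKdm6b than in control in 5 of 5 pairs (group ranges 5637 to 24928 and 6344 to 32524 CPM), and so was the sum of 10 Purkinje cell and interneuron markers (113 to 284 and 155 to 381 CPM), among which the Purkinje marker Pcp2 was at 0 in every library. In the dead rescue both sums were also lower than control in 5 of 5 pairs, and in the active rescue the fibroblast sum was lower in 4 of 5 and the Purkinje cell and interneuron sum in 5 of 5. The granule neuron marker sum lay on either side of control, below it in 3 of 5 pairs (1920 to 7077 and 2595 to 7246 CPM), and so did the astrocyte sum, below it in 3 of 5 (1350 to 7320 and 1593 to 8063 CPM). Microglia and oligodendrocyte marker sums were also lower in 3 of 5 pairs and endothelial markers in 1 of 5. With pairing, edgeR called 2 of 12 granule neuron markers higher and 3 lower in shKdm6b. Among those higher was the homeobox gene Barhl1 (0.98 ± 0.13, SE, edgeR paired adjusted p = 0.000355). Among those lower was the transcription factor gene Etv1 (-1.02 ± 0.18, SE, edgeR paired adjusted p = 0.00383). The paired fit also called lower 1 of 10 microglia markers (Tmem119), 1 of 10 oligodendrocyte lineage markers (Cspg4) and 2 of 8 Purkinje cell and interneuron markers (Gad1 and Slc32a1). It called none of 10 astrocyte, 10 fibroblast and 10 endothelial markers (4, 7 and 1 of them had an unadjusted p under 0.05). The part of these cell types in the differences of the 7 genes was not tested.

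**Figure D4:**
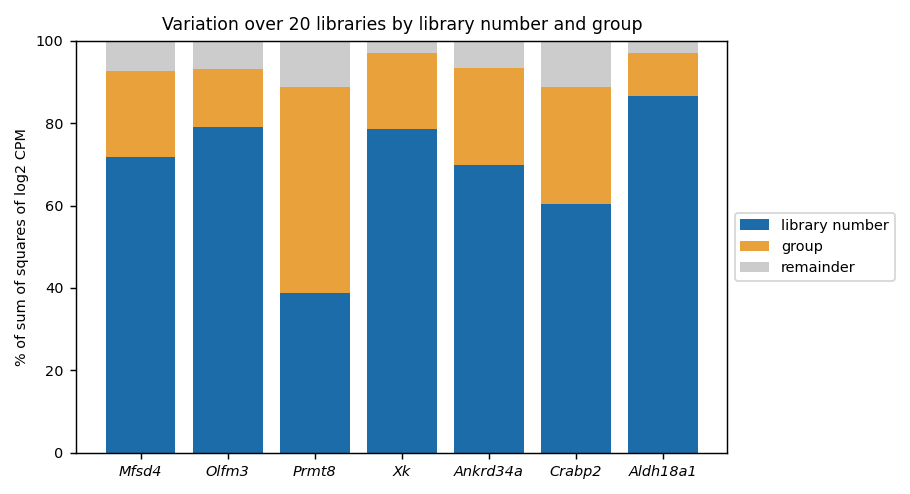
Share of the sum of squares of log2 CPM over the 20 libraries (in percent) that goes with library number, with group and with neither, for each gene. Library number holds the largest share in 6 genes, up to 86.6% in Aldh18a1, and group holds the largest share in Prmt8 (49.8%).

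After the mean of each number was taken off, the 7 genes followed each other across the 20 libraries with Pearson r from 0.49 (Olfm3 and Aldh18a1) to 0.90 (Olfm3 and Ankrd34a, and Prmt8 and Ankrd34a), which holds the group differences that chose them. With the group means taken off as well, r ran from -0.68 to 0.74 over the 21 gene pairs (median 0.23). Olfm3 and Ankrd34a still moved together (0.74), while Olfm3 and Aldh18a1 went opposite ways (-0.68). These values share libraries and depth and are a description.

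The 3 genes most like each member, by Pearson r of log2 CPM over the 20 libraries less the mean of each number, were drawn from 11644 genes with a mean of at least 5 CPM. Nearest to Xk were Usp3, a deubiquitinase (0.98), Ugcg, the glucosylceramide synthase (0.97), and the SNARE gene Snap29 (0.97). Ankrd34a was closest to Nab2, a corepressor of EGR factors (0.97), Rasd2 (0.96) and Tmem25 (0.96). Mfsd4 was closest to Desi2 (0.95), the histone acetyltransferase gene Kat2b (0.94) and Tppp (0.94), and Olfm3 to the adhesion gene Nptn (0.94), to Cntn6, a contactin (0.93), and to Trim62 (0.92). Prmt8 was closest to Fndc5 (0.93), Fam131a (0.93) and Tmem87a (0.92), and Crabp2 to Phospho1 (0.97), Arhgap10 (0.97) and Ramp3 (0.95). Aldh18a1 had the loosest neighbours, Gbas, Tmod1 and Perm1, at 0.88 to 0.89. No gene was the neighbour of more than 1 member. Each r still holds the group differences that chose the members and is among the highest of 11644, so these neighbours are a description. Before the number means were taken off, r was 0.17 to 0.38 for the Aldh18a1 neighbours and 0.37 for Crabp2 and Ramp3. For the rest it was 0.65 to 0.98.

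The relatives and pathway partners of the 7 genes mostly did not pass in shKdm6b against control. In this comparison the paired fit called 4.14% of all genes (1.72% higher, 2.41% lower), and the fit without pairing 0.00654%, and none of the listed genes was called by edgeR without pairing. Of 14 tested proline and glutamate metabolism genes without Aldh18a1, 1 fell, 1 rose and 12 did not pass; the gene that rose was the proline transporter gene Slc6a7, which changed by 0.72 ± 0.19 (SE; edgeR paired adjusted p = 0.0462). None of 25 genes of the integrated stress response, the amino acid shortage program to which Aldh18a1 also belongs, passed in the paired edgeR fit (2 had an unadjusted p under 0.05). Of 20 retinoic acid pathway genes without Crabp2, the receptor gene Rara fell by 0.37 (adjusted p = 0.00748), from 36.5 ± 9.15 to 28.1 ± 5.84 CPM (SD, n = 5 each), and 19 did not pass.

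Among 11 arginine methyltransferases and their partners, Prmt2 rose by 0.29 ± 0.08 (SE; edgeR paired adjusted p = 0.0404), opposite in sign to Prmt8, and 10 did not pass. None of 9 olfactomedin relatives and latrophilins, 13 genes of the XK family and its partners, 14 MFSD transporters and 1 ANKRD34 relative passed in the paired edgeR fit (0, 3, 1 and 0 had an unadjusted p under 0.05). The median log2 fold change of the XK list was -0.25 and that of the others lay between -0.01 and 0.26, beside 0.01 over all genes. With an active against a dead domain, none of these lists held a call in either edgeR fit.

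A list of late granule neuron maturation genes, without the 7 members, held 14 genes that fell in shKdm6b in the paired edgeR fit, none that rose and 19 that did not pass, of 33 tested, and no call without pairing. It had a median log2 fold change of -0.30 against 0.01 over all genes (background 2.41% lower). Earlier results of these data were known when the list was drawn up, so its calls are a description and no test against that background. The A-type channel partner gene Kcnip4 changed by -1.62 ± 0.35 (SE; edgeR paired adjusted p = 0.0133), the GABA-A receptor delta subunit gene Gabrd by -1.59 ± 0.41 (0.0361) and the NMDA receptor subunit gene Grin2c by -1.47 ± 0.28 (0.00543). The list of early granule neuron and progenitor genes held 5 higher, 1 lower and 26 not passing of 32 (median 0.09), where the leading genes were the zinc finger factor gene Insm1, which rose by 1.18 ± 0.17 from 18.1 ± 5.24 to 41.3 ± 11.96 CPM, the homeobox gene Barhl1 (0.98 ± 0.13) and the growth cone gene Gap43 (0.85 ± 0.11). The 7 members had values of -1.80 to -0.38, but this contrast chose them, so nothing is read from setting them beside the lists.

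Both lists were drawn up with earlier results of these data known, so their counts and adjusted p-values in shKdm6b against control are a description. Leaving out the 4 libraries numbered 5 reduced the late list to 4 lower calls, and the libraries numbered 1 to 3 alone gave 8 lower and 1 higher; without shKdm6b 1 it held 9. Without the libraries numbered 4 it held 16 lower and 1 higher. The early list held 4 to 7 higher calls over these library sets. In the active against the dead rescue neither list held a call in edgeR with or without pairing (1 late and 0 early genes had an unadjusted p under 0.05 with pairing).

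**Figure D5:**
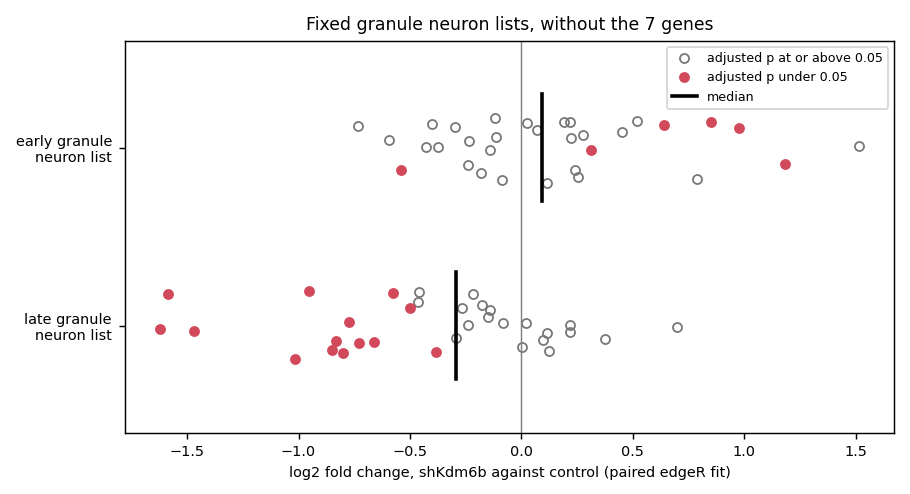
Log2 fold change in shKdm6b against control (paired edgeR fit) of each tested gene of the late granule neuron maturation list (33 genes) and the list of early granule neuron and progenitor genes (32), without the 7 members; filled points have an adjusted p under 0.05 and black bars are medians. The late list holds 14 filled points, all below 0, and the early list 5 above and 1 below 0. Both lists were drawn up with earlier results of these data known.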

How the data were processed

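Estimated counts per gene symbol, 1 column for each of 20 libraries, were deposited by the authors as a table whose name gives salmon; per the submitters' processing notes, reads were placed on mm10. The sources used here do not give the version, annotation or read filters. Of the values in a library, 7.03 to 11.2% were not whole. No columns were identical; within a group the chi-square of 2 libraries' counts was 27.9 to 395 per degree of freedom, above sampling noise, and each library counted as a sample. Columns were matched to samples by name, and none was left over.

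Counts were rounded, filtered with filterByExpr of edgeR 4.0.16 (R 4.3.3; 15284 of 24411 genes kept), TMM-scaled and tested with edgeR's quasi-likelihood test over all 20 libraries, two-sided, Benjamini-Hochberg adjusted over all genes, threshold 0.05. An SE is the log2 fold change over the square root of its F. CPM uses TMM-scaled library sizes and log2 CPM a prior count of 1. The design set down left the replicate number out, and a second fit added it as a block. Deviations from the group means correlated in each of 30 pairs of libraries with 1 number (r 0.361 to 0.881, limit 0.1). In 120 other pairs the median r was -0.205 and the highest 0.572, so the ranges overlap. Each of the 20 libraries correlated most with one of its own number, and the numbers were taken to pair the libraries. No label gives their meaning. The test was tried on simulated data. DESeq2 1.42.0 was an alternative.

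The 7 genes and the lists were chosen with earlier results of these data known. Named beside the members are Kdm6b, for each member the 3 genes of highest r, up to 3 called genes per list with a mean of at least 1 CPM and the largest fold change, and near relatives; 1 called gene of the proline and glutamate list is not reported here. Counts limit precision: each interval covers the spread between libraries, with 5 per group.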

Additional observations from a re-analysis of the deposited data

Results flagged for a closer look

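Mfsd4 in active rescue library 5 stood at 30.7 CPM, far above the other 4 libraries of its group (3.91 to 7.17 CPM), which is what brought it up; it was 1 of 28 combinations of gene and group examined, where chance alone gives about 1 in 20. Libraries numbered 5 were the highest for Mfsd4 in all 4 groups (71.2 CPM in control, 13.2 CPM in shKdm6b and 35.9 CPM in the dead rescue).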

How the results depend on the processing

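All 7 genes stayed below control in shKdm6b and both rescues in every alternative run. There were 182 values per comparison in the runs set beside the fit without pairing, which include the replicate block, and 168 beside the paired fit. Levels below control chose the genes and every run reuses these libraries, so the sign is a description. The count of genes called in shKdm6b against control moved with the processing: 1 without pairing, 632 with the replicate block, 64 in DESeq2 without pairing, 0 with only the 2 groups compared, 74 without the libraries numbered 4, and 0 to 11 when any 1 library was left out. Of genes called with pairing, shKdm6b against control, there were 990 without the libraries numbered 4 and 182 without those numbered 5, settings added after seeing the data, and 352 (without shKdm6b 5) to 912 (without active rescue 4) when any 1 library was left out. For the active against the dead rescue it was 0 without pairing, also when any 1 library was left out (0 in each case), 1 with the replicate block, 3 in DESeq2 with the block, 0 without the libraries numbered 4 or those numbered 5, 9 with numbers 1 to 3 alone, and 0 to 2 with any 1 library left out. The number of genes that differed between library numbers (12940) was 12338 to 13469 with any 1 library left out. The cause of these shifts was not tested; fewer libraries give fewer degrees of freedom. The replicate block changed no call of a member between the rescues.

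Among the 7 genes the paired active minus dead difference ran from -0.46 for Crabp2 to 0.31 for Olfm3, and every interval included 0. The sign of the difference turned in places. For Mfsd4 it was -0.18 without pairing, 0.0803 with the replicate block, and with pairing -0.26 without the libraries numbered 4 and -0.29 with numbers 1 to 3 alone. With any 1 library left out, the log2 fold change without pairing ran from -1.02 to 0.72 for Mfsd4, -0.31 to 0.0558 for Prmt8, -0.53 to 0.0303 for Xk, -0.40 to 0.21 for Ankrd34a and -0.25 to 0.12 for Aldh18a1. With pairing it ran from -0.23 to 0.28 for Mfsd4, -0.35 to 0.0093 for Prmt8, -0.34 to 0.0318 for Xk and -0.15 to 0.0157 for Ankrd34a. The difference in mean log2 CPM ran from -0.51 to 0.72 for Mfsd4, -0.34 to 1.09 for Olfm3, -0.43 to 0.0828 for Prmt8, -0.73 to 0.38 for Xk, -0.50 to 0.36 for Ankrd34a and -0.24 to 0.0925 for Aldh18a1. Crabp2 kept its negative sign in all of these.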
